A study of Homo sapiens with 6 samples.

Results

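The amino acid transporters of 7 solute carrier families were followed in MDA-MB-231, an established human line of triple-negative, claudin-low breast cancer. Members were all genes of the count table whose symbol begins with SLC1A, SLC3A, SLC6A, SLC7A, SLC36A, SLC38A or SLC43A. An antisense gene and an opposite-strand gene, SLC7A11-AS1 and SLC7A6OS, were left out by name, which gave 49 members among 30051 genes. Cells were given the broad histone deacetylase inhibitor panobinostat at 50 nM, or DMSO, for 24 h, in the same serum-containing medium. There were 3 libraries of each treatment, panobinostat replicates 1, 2 and 4 and DMSO replicates 1, 2 and 3, which the series describes as independent repeats of a single line. The comparison asks how the transcripts of a cell's amino acid supply differ under the inhibitor.

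Amino acids do not cross the membrane unaided, and each family moves them in its own way. The SLC1 proteins carry glutamate and aspartate into the cell or exchange small neutral amino acids such as glutamine. Several SLC7 proteins are light chains that reach the surface only when bound to an SLC3 heavy chain, and they swap one amino acid for another, whereas the SLC7 cationic carriers work alone on arginine and lysine. The SLC38 and SLC6 carriers are driven by sodium, the SLC36 carriers by protons, and the SLC43 carriers by the gradient of their substrate. Some members sit on the lysosome, where amino acids are released from degraded protein and sensed by the growth kinase mTORC1.

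Library totals ran from 5389638 to 15106148 counts in panobinostat and from 6514568 to 11996519 in DMSO, and the members held 0.300% to 0.342% of the counts in panobinostat and 0.366% to 0.374% in DMSO. Panobinostat replicate 4 stood apart: the chi-square per gene was 19.6 against replicate 1 and 13.0 against replicate 2, while it was 1.57 between those 2 libraries and 1.25 to 1.76 among DMSO libraries. Log2 fold changes without it are therefore given beside the main ones for called members, and the medians without it for the lists. Levels are given as CPM, counts scaled to a library total of 1000000. The mesenchymal marker VIM stood at 2870 ± 123 CPM in panobinostat and 2567 ± 9.13 CPM in DMSO. The other markers expected present were all detected, with log2 fold changes in both directions. ANXA1 rose (0.74 ± 0.11 SE), AXL (−0.34 ± 0.08) and MSN (−0.13 ± 0.04) fell, and CD44 (0.09 ± 0.05) was not called. The epithelial cadherin gene CDH1 had 0 CPM in every panobinostat library and 0.0283 ± 0.0489 CPM in DMSO. Of the markers expected to be low in a claudin-low line, EPCAM was detected at 11.2 ± 2.12 CPM in panobinostat and 18.5 ± 1.66 CPM in DMSO. CLDN7 was detected at 15.6 ± 1.62 CPM in panobinostat and 15.5 ± 0.503 CPM in DMSO, and CLDN4 rose to 4.05 ± 0.821 CPM in panobinostat, against 1.24 ± 0.378 CPM in DMSO. Of the markers of other cell types, leukocyte PTPRC averaged 0.123 CPM in panobinostat and 0 CPM in DMSO. Endothelial PECAM1 averaged 4.64 ± 1.28 CPM in panobinostat and 6.88 ± 1.14 CPM in DMSO and was not called. Endothelial VWF, too low to test, had 28 counts in panobinostat and 10 in DMSO.

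Of the 49 members, 26 passed the filter on low counts and were tested. Under panobinostat 7 rose, 11 fell and 8 were not called (edgeR, adjusted p under 0.05 over all tested genes), so 69.2% of the tested members were called against 58.9% of all 13341 tested genes (63.9% at an unadjusted p under 0.05). The share that rose was 26.9%, against 30.2% of all tested genes, and the share that fell was 42.3%, against 28.6%. The largest rises were in SLC6A8, a creatine carrier, and SLC38A4, a carrier of small neutral amino acids, each a little over 4-fold. The largest falls were in SLC7A1, the main arginine carrier of many cell types, and SLC7A11, the cystine carrier that feeds glutathione synthesis, each to between 0.526 and 0.533 of the DMSO level. The median log2 fold change of the tested members was −0.20, against 0.00 for all tested genes, and −0.25 without panobinostat replicate 4, against −0.01. At least 2-fold rises were found in 2 members (10.9% of all tested genes) and at least 2-fold falls in 0 (4.66% of all tested genes). The 0 rests on panobinostat replicate 4: without it SLC7A1, SLC7A11, SLC43A3 and SLC38A1 fell at least 2-fold, 4 of 26 members against 9.21% of all genes then tested, and 2 members rose at least 2-fold, against 13.7%. The libraries of the 2 treatments did not overlap in 23 of 26 members (88.5%), against 69.0% of all tested genes. In RNA from whole cultures, fewer expressing cells and less RNA per cell cannot be told apart.

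**Figure D1:**
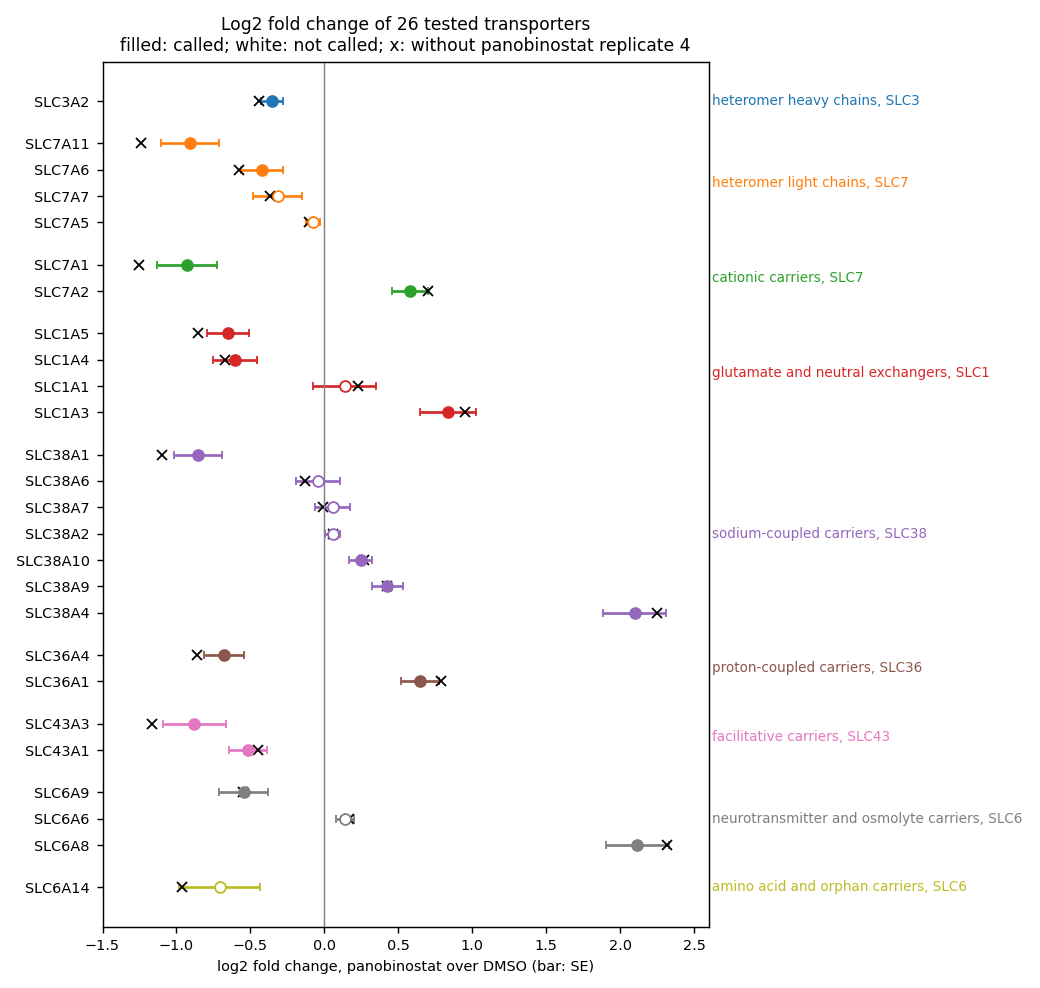
Log2 fold change of panobinostat over DMSO for the 26 tested members (horizontal axis, bars are SE), ordered by transport role, with filled points for called and white points for uncalled members and crosses for the value without panobinostat replicate 4. SLC38A4 and SLC6A8 stand alone on the right at 2.10 and 2.11, and the lowest point is SLC7A1 at −0.93.

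The promoters of 5 members are shown because these genes moved most or share letters that the choice of members did not use. They run from 250 bases before to 50 bases after a RefSeq start on GRCh38.p14. SLC7A1 (chr13:29595639-29595938, minus strand), SLC38A1 (chr12:46266467-46266766, minus strand) and SLC3A2 (chr11:62881449-62881748, plus strand) fell, and SLC38A4 (chr12:46825948-46826247, minus strand) and SLC6A8 (chrX:153687676-153687975, plus strand) rose. For SLC3A2, SLC38A1 and SLC38A4 this start lies inside the RefSeq span of the gene. Capitals mark matches, on either strand, to TGATGNAA, the response element that ATF4 and C/EBP proteins are known to bind, and to TGACTCA, the AP-1 site. Other members with a match are not printed, among them SLC1A3, which rose and holds a match to TGATGNAA. The printed set therefore does not show how matches divide between rises and falls.
SLC7A1: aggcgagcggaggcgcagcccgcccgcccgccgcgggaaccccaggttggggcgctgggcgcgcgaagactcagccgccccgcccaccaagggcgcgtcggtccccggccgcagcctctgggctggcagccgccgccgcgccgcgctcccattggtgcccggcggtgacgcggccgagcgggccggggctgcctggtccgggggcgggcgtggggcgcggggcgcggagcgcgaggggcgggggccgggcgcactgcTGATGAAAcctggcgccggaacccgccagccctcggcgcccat
SLC38A1: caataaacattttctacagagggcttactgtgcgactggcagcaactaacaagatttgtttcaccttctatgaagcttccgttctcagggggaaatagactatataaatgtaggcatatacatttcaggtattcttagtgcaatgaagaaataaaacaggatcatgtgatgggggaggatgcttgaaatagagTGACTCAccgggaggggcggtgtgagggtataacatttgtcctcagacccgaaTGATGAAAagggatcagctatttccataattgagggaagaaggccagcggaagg
SLC3A2: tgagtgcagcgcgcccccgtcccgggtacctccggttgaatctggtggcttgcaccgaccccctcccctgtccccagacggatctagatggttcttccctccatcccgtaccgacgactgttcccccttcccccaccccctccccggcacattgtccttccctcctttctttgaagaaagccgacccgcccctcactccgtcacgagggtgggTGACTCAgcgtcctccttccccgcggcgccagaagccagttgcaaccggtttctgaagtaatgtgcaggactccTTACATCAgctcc
SLC38A4: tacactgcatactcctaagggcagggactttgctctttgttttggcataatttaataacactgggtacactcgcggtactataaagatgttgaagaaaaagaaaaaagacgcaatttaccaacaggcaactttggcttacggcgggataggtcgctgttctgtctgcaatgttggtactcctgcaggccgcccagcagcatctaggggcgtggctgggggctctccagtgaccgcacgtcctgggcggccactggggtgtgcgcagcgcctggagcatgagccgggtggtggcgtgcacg
SLC6A8: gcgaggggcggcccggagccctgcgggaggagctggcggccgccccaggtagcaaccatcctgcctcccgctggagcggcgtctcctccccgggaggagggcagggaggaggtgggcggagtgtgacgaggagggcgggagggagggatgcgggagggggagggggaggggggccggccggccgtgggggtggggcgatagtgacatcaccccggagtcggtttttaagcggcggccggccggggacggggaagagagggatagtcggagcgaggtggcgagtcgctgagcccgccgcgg

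The promoter table held 39 of the 49 members, 22 of them tested, and SLC7A11 was among those it did not hold. TGATGNAA occurred in 3 of 9 promoters of members that fell, SLC7A1, SLC38A1 and SLC3A2, and in 1 of 6 of members that rose, SLC1A3. It occurred in 0 of 7 promoters of uncalled members and in 3.62% of all 35116 promoters of this length. TGACTCA occurred in 2 of 9 promoters of members that fell, SLC3A2 and SLC38A1, in 0 of 6 of those that rose, in 1 of 7 of uncalled members and in 4.95% of all promoters. Among the 5 promoters printed, the base composition ran from 43.3% G and C with 6 CpG in SLC38A1 to 82.0% with 49 CpG in SLC7A1, beside a median of 58.7% with 14 CpG in all promoters. The median of the 22 promoters of tested members was 63.8% with 22 CpG. All promoters include those of genes not tested here. Motif shares among promoters of all tested genes were not computed, so the shares of all promoters are not a matched background. Other motifs searched on both strands were the antioxidant response element core TGACNNNGC (3 of 9 that fell, 0 of 6 that rose, 2 of 7 uncalled, 13.3% of all promoters), the E-box CACGTG (1 of 9, 0 of 6, 2 of 7 and 7.26%), CCAAT (2 of 9, 2 of 6, 0 of 7 and 34.6%) and the GC box GGGCGG (8 of 9, 4 of 6, 5 of 7 and 45.0%). The TGACTCA match of SLC3A2 is also its match to TGACNNNGC. A match is a string of letters here, and binding was not measured.

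The heteromers of SLC3 and SLC7 changed unevenly. The heavy chain gene SLC3A2, whose protein is also known as CD98, had 272, 275 and 319 CPM in panobinostat replicates 1, 2 and 4 and 377, 370.3 and 358 CPM in DMSO replicates 1, 2 and 3. All panobinostat libraries lay below all DMSO libraries, and SLC3A2 fell (log2 fold change −0.35 ± 0.07 SE, edgeR adjusted p = 0.00537, −0.44 without panobinostat replicate 4). Its partner SLC7A5, the leucine exchanger often called LAT1, had the highest level per length of all members, 231 ± 5.12 CPM per kb of exon in panobinostat and 244 ± 3.32 CPM per kb in DMSO (mean ± SD, n = 3 each). SLC7A5 had 1095, 1074 and 1122 CPM in panobinostat and 1148, 1147 and 1175 CPM in DMSO. The groups did not overlap, but the difference was small and SLC7A5 was not called (−0.08 ± 0.05, edgeR adjusted p = 0.192). Leaving out panobinostat replicate 4 gave a call (−0.10, edgeR adjusted p = 0.00836, in a range of 0.000734 to 0.408 across its alternatives).

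SLC7A11, the cystine and glutamate exchanger, had 54.7, 62.5 and 99.0 CPM in panobinostat and 135, 134 and 133 CPM in DMSO. The DMSO libraries were nearly level, panobinostat replicates 1 and 2 lay lowest and replicate 4 lay between. SLC7A11 fell (−0.91 ± 0.20, edgeR adjusted p = 0.00580, −1.24 without panobinostat replicate 4). Its exons share 865 bases with the antisense gene SLC7A11-AS1, which had 62, 16 and 16 counts in panobinostat and 18, 12 and 10 counts in DMSO (log2 fold change 1.05 ± 0.28). How the counting treated strand is not stated in the sources at hand, so reads of these overlapping genes may be divided between them in an unknown way. SLC7A6, an exchanger of cationic for neutral amino acids, averaged 24.0 ± 4.92 CPM in panobinostat and 32.1 ± 1.34 CPM in DMSO and fell (−0.42 ± 0.14, edgeR adjusted p = 0.0349, −0.57 without panobinostat replicate 4). The call went when any library other than panobinostat replicate 4 was left out (edgeR adjusted p = 0.0709 to 0.115, in a range of 2.10e-08 to 0.115 across its alternatives), and 3371 bases of its exons overlap the opposite-strand gene SLC7A6OS. Its relative SLC7A7 was not called (−0.32 ± 0.17), with 5.32 ± 0.545 CPM in panobinostat and 6.68 ± 0.527 CPM in DMSO.

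Per unit of heavy chain transcript, each divided by its exon length, SLC7A5 stood at 4.39, 4.26 and 3.84 in panobinostat and at 3.32, 3.38 and 3.58 in DMSO. The panobinostat ratios all lay above the DMSO ratios. The same ratio for SLC7A11 was 0.108, 0.122 and 0.167 in panobinostat and 0.193, 0.194 and 0.200 in DMSO, with the panobinostat ratios all below. For SLC7A6 it was 0.05623, 0.04972 and 0.06312 in panobinostat and 0.05872, 0.05639 and 0.06327 in DMSO. For SLC7A7 it was 0.01975, 0.01754 and 0.01857 in panobinostat and 0.017, 0.01745 and 0.02055 in DMSO. The treatments overlapped in the ratios of SLC7A6 and SLC7A7. These ratios come from the levels already given, and an exact permutation test of 3 against 3 libraries cannot go below p = 0.1, so no test was run on them. The remaining light chains were too low to test: SLC7A8 had 12 counts in the panobinostat libraries together and 2 in DMSO, a scaled ratio of 5.56 (95% counting interval 1.24 to 51.1). SLC7A10, which carries small neutral amino acids, had 10 counts in panobinostat and 1 in DMSO, a ratio of 9.26 (1.32 to 402). The second heavy chain, SLC3A1, had 11 counts in panobinostat and 6 in DMSO, a ratio of 1.70 (0.575 to 5.59). These intervals cover counting error only.

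The cationic carriers moved in opposite directions. SLC7A1, a uniporter of arginine and lysine, had 159.6, 153 and 274 CPM in panobinostat and 382, 358.5 and 371 CPM in DMSO. All DMSO values were higher, and panobinostat replicate 4 was closest to them. SLC7A1 fell (−0.93 ± 0.20, edgeR adjusted p = 0.00624, −1.25 without panobinostat replicate 4). With no filter on low counts it was not called (−0.98, edgeR adjusted p = 0.0758). Its edgeR adjusted p ranged from 1.08e-247, in a fit by replicate number that rests on replicates 1 and 2, to 0.0758 across its alternatives. SLC7A2, the cationic carrier known for supplying arginine in immune cells and liver, rose to 67.0 ± 9.84 CPM in panobinostat, against 45.0 ± 3.50 CPM in DMSO (0.58 ± 0.12, edgeR adjusted p = 0.00531, 0.70 without panobinostat replicate 4). Per length, SLC7A1 still exceeded SLC7A2 in both treatments, at 25.4 ± 8.83 against 8.48 ± 1.24 CPM per kb in panobinostat and 48.2 ± 1.5 against 5.69 ± 0.443 CPM per kb in DMSO.

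**Figure D2:**
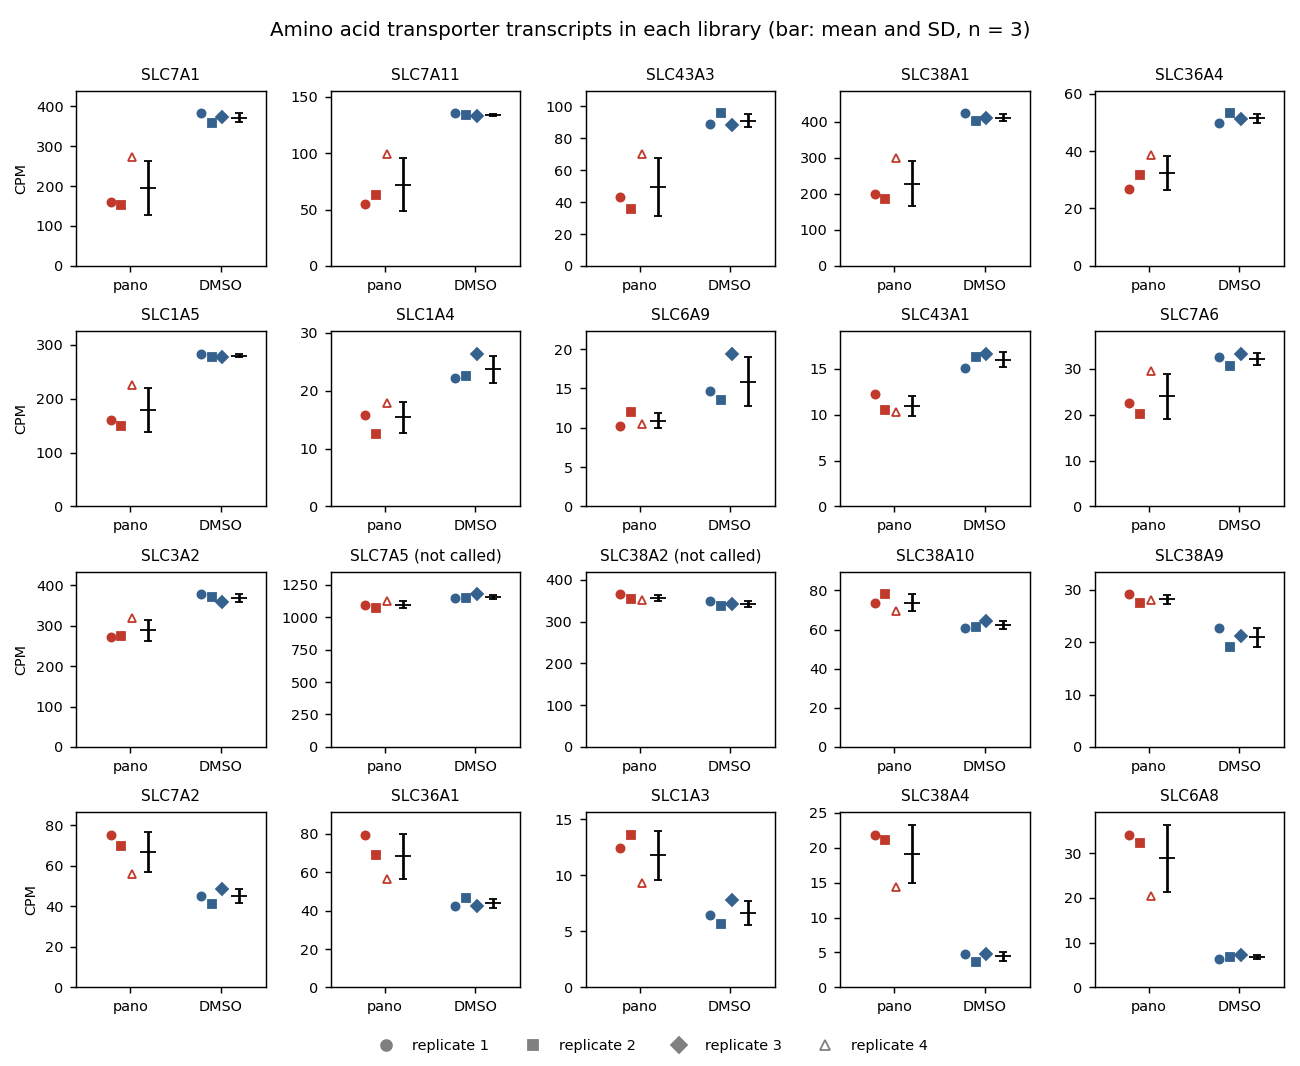
CPM in each library (vertical axes from 0) for the 18 called members and for SLC7A5 and SLC38A2, with panobinostat left of DMSO, replicate numbers as symbols, and bars for mean and SD (n = 3). Panobinostat replicate 4, the open triangle, lies between the other panobinostat libraries and the DMSO libraries in 15 of the 18 called members, against 91.7% of all called genes.

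Among the SLC1 genes, the exchangers of neutral amino acids fell and a glutamate carrier rose. SLC1A5, which brings glutamine into many tumour cells, had 159.6, 150.0 and 225 CPM in panobinostat and 283, 278 and 277 CPM in DMSO. Panobinostat replicate 4 was the highest of its group and still below every DMSO library, and SLC1A5 fell (−0.65 ± 0.14, edgeR adjusted p = 0.00575, −0.85 without panobinostat replicate 4). The exons of SLC1A5 share 780 bases with AC008622.2 on the other strand. AC008622.2 had 0, 0 and 1 counts in panobinostat and 15, 4 and 4 counts in DMSO. SLC1A4, a carrier of serine, alanine and cysteine, had 15.8, 12.5 and 17.9 CPM in panobinostat and 22.2, 22.5 and 26.4 CPM in DMSO. It fell by a similar estimate with no overlap between the groups (−0.60 ± 0.15, edgeR adjusted p = 0.00965, −0.67 without panobinostat replicate 4). SLC1A3, the glutamate and aspartate carrier of astrocytes, had 12.4, 13.6 and 9.33 CPM in panobinostat and 6.44, 5.69 and 7.76 CPM in DMSO. SLC1A3 rose (0.84 ± 0.19, edgeR adjusted p = 0.00719, 0.95 without panobinostat replicate 4), although the lowest panobinostat and the highest DMSO library were close. SLC1A1, another glutamate carrier, was not called (0.14 ± 0.21), and its groups overlapped. SLC1A7, a retinal glutamate carrier, was not tested and had 9 counts in panobinostat and 24 in DMSO, a ratio of 0.347 (0.142 to 0.774).

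The SLC38 genes include 3 neighbours on chromosome 12 that behaved differently. On GRCh38.p14 SLC38A1 spans 46183063 to 46269043, SLC38A2 46358188 to 46372773 and SLC38A4 46764761 to 46832431, within 649.4 kb. SLC38A1, a glutamine carrier, had 199.8, 185 and 300.1 CPM in panobinostat and 423.5, 402 and 411 CPM in DMSO. It fell with no overlap (−0.85 ± 0.16, edgeR adjusted p = 0.00404, −1.10 without panobinostat replicate 4). SLC38A2, the carrier whose transcript is known to rise when amino acids are scarce, had 365, 353 and 351 CPM in panobinostat and 350.2, 336 and 342 CPM in DMSO. The lowest panobinostat and the highest DMSO library were nearly equal, and SLC38A2 was not called (0.06 ± 0.05, edgeR adjusted p = 0.389). SLC38A4, a carrier best known from liver and placenta, had 21.8, 21.1 and 14.3 CPM in panobinostat and 4.83, 3.70 and 4.81 CPM in DMSO. Even the lowest panobinostat library was well above all DMSO libraries, and SLC38A4 rose (2.10 ± 0.21, 4.28-fold, edgeR adjusted p = 0.000631, 2.25 without panobinostat replicate 4).

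Per length the order of these neighbours was SLC38A2, SLC38A1 and SLC38A4 in both treatments. SLC38A2 stood at 54.0 ± 1.17 CPM per kb in panobinostat and 51.9 ± 1.06 CPM per kb in DMSO. SLC38A1 stood at 22.8 ± 6.26 CPM per kb in panobinostat and 41.1 ± 1.1 CPM per kb in DMSO, and SLC38A4 at 4.61 ± 1.00 CPM per kb in panobinostat and 1.07 ± 0.156 CPM per kb in DMSO. Of the other SLC38 genes, SLC38A9, the lysosomal protein that reports arginine to mTORC1, had 29.1, 27.4 and 28.0 CPM in panobinostat and 22.6, 19.1 and 21.1 CPM in DMSO. Its groups were apart and panobinostat replicate 4 lay among the other panobinostat libraries, and SLC38A9 rose (0.43 ± 0.10, edgeR adjusted p = 0.00936, 0.42 without panobinostat replicate 4). SLC38A10, whose substrates are less settled, averaged 73.8 ± 4.13 CPM in panobinostat and 62.2 ± 2.01 CPM in DMSO and rose (0.25 ± 0.08, edgeR adjusted p = 0.0238, 0.27 without panobinostat replicate 4). That call was lost with the DESeq2 test (adjusted p = 0.0939), with no filter (0.207) and when any library other than panobinostat replicate 4 was left out (0.0655 to 0.0980), in a range of 8.18e-06 to 0.207 over all its alternatives. SLC38A6 (−0.04 ± 0.15) and the lysosomal glutamine exporter gene SLC38A7 (0.06 ± 0.12) were not called, and their groups overlapped. SLC38A5 had 7 counts in panobinostat and 5 in DMSO, and SLC38A3 had 0 in panobinostat and 2 in DMSO.

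The proton-coupled SLC36 genes went apart. SLC36A1, whose protein moves glycine, alanine and proline out of the lysosome, had 79.5, 69.1 and 56.3 CPM in panobinostat and 42.4, 46.7 and 42.7 CPM in DMSO. SLC36A1 rose (0.65 ± 0.13, edgeR adjusted p = 0.00451, 0.79 without panobinostat replicate 4), with panobinostat replicate 4 the lowest of its group. SLC36A4, a carrier of proline and tryptophan, had 26.9, 31.6 and 38.7 CPM in panobinostat and 49.9, 53.1 and 51.1 CPM in DMSO. It fell with no overlap (−0.68 ± 0.13, edgeR adjusted p = 0.00438, −0.86 without panobinostat replicate 4). SLC36A2 had 9 counts in panobinostat and 0 in DMSO, and SLC36A3 had 0 counts in all 6 libraries.

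Both tested SLC43 genes fell. SLC43A3, assigned by later work to purine nucleobases rather than amino acids, had 43.1, 35.7 and 70.1 CPM in panobinostat and 89.2, 95.6 and 88.4 CPM in DMSO. The groups were apart, and panobinostat replicate 4 was nearest to DMSO (−0.88 ± 0.21, edgeR adjusted p = 0.00897, −1.17 without panobinostat replicate 4). The exons of SLC43A3 share 1349 bases with AP000781.2 on the same strand. AP000781.2 had 1, 1 and 0 counts in panobinostat and 0, 0 and 0 counts in DMSO. SLC43A1, a facilitative carrier of leucine and other large neutral amino acids, averaged 10.98 ± 1.09 CPM in panobinostat and 16.0 ± 0.790 CPM in DMSO and fell (−0.52 ± 0.13, edgeR adjusted p = 0.00971, −0.45 without panobinostat replicate 4). SLC43A2 had 7 counts in panobinostat and 0 in DMSO.

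Most of the 14 SLC6 genes found in the count table were nearly silent, and 4 of the 14 were tested. SLC6A8, which imports creatine for the phosphocreatine energy store, had 34.1, 32.2 and 20.3 CPM in panobinostat and 6.27, 6.83 and 7.14 CPM in DMSO. All panobinostat libraries lay far above DMSO, and SLC6A8 rose (2.11 ± 0.21, 4.33-fold, edgeR adjusted p = 0.000638, 2.32 without panobinostat replicate 4). SLC6A9, a glycine carrier, averaged 10.9 ± 0.932 CPM in panobinostat and 15.9 ± 3.12 CPM in DMSO and fell (−0.55 ± 0.17, edgeR adjusted p = 0.0224, −0.55 without panobinostat replicate 4). The call went when DMSO replicate 3 (edgeR adjusted p = 0.0665) or panobinostat replicate 1 (0.0824) was left out, in a range of 0.000442 to 0.0824 across its alternatives. Its exons share 404 bases with CCDC24 on the other strand, which had 218, 89 and 57 counts in panobinostat and 33, 19 and 29 counts in DMSO. SLC6A6, the taurine carrier, had 239 ± 10.3 CPM in panobinostat and 217 ± 5.15 CPM in DMSO and was not called (0.14 ± 0.06, edgeR adjusted p = 0.0792), but it was without panobinostat replicate 4 (0.17, edgeR adjusted p = 0.000652, in a range of 3.13e-07 to 0.492 across its alternatives). SLC6A14, a carrier of neutral and cationic amino acids, was not called (−0.71 ± 0.27, edgeR adjusted p = 0.0534). Leaving out panobinostat replicate 4 gave a call here too (−0.96, edgeR adjusted p = 0.000891, in a range of 0.000891 to 0.204 across its alternatives). The other SLC6 members, among them the serotonin carrier SLC6A4 with 8 counts in panobinostat and 6 in DMSO, stayed below the filter.

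In all, 23 members were not tested, 17 of them with under 10 counts in the 6 libraries together. They held 102 counts in panobinostat and 57 in DMSO, and 11 of them had 0 counts in DMSO. A gene with almost no DMSO counts passes the filter only if it is higher in panobinostat, so the counts of tested members do not stand for all 49.

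The level of the family as a whole was dominated by a few members. Summed over all members, the level per length was 543, 526 and 599 CPM per kb in panobinostat and 659, 649.5 and 660.1 CPM per kb in DMSO. SLC7A5 alone made up 41.7% ± 1.93 of that sum in panobinostat and 37.1% ± 0.406 in DMSO (SD, n = 3 each). SLC38A2 made up 9.75% ± 0.759 in panobinostat and 7.92% ± 0.117 in DMSO, and SLC6A8 made up 0.957% ± 0.295 in panobinostat and 0.187% ± 0.0124 in DMSO. The share of the SLC1 genes was 10.5% ± 1.42 in panobinostat and 13.7% ± 0.0851 in DMSO, and that of the cationic carriers was 6.05% ± 0.928 in panobinostat and 8.21% ± 0.208 in DMSO. These shares are relative, so a gene whose own level held can gain when others fall. Among the 13 members of higher level over all libraries 3 rose, 7 fell and 3 were not called. Among the 13 of lower level 4 rose, 4 fell and 5 were not called. Over all tested genes 30.2% rose and 28.6% fell. Shares among all genes of like level were not computed, so the split does not show a link of direction to level. Exon length was that of all annotated exons of a gene together, which need not be the transcript these cells make.

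**Figure D3:**
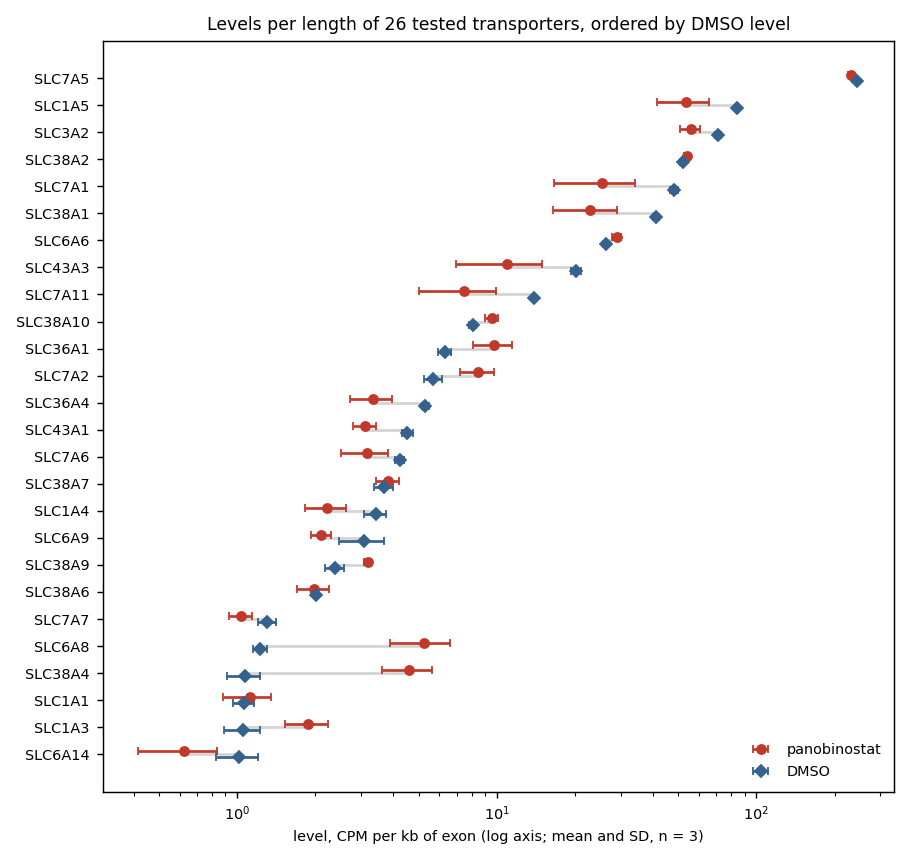
Level per length of the 26 tested members in panobinostat (circles) and DMSO (diamonds), as CPM per kb of exon on a log axis, mean and SD (n = 3), ordered by the DMSO level. SLC7A5 leads in both treatments at 231 and 244 CPM per kb, and the widest gaps are those of SLC6A8 and SLC38A4, which stood at 5.25 and 4.61 CPM per kb in panobinostat and at 1.23 and 1.07 CPM per kb in DMSO.

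In the order of levels per length, SLC1A5 was in place 4 in panobinostat and place 2 in DMSO, and SLC3A2 in place 2 in panobinostat and place 3 in DMSO. In panobinostat SLC3A2, SLC38A2 and SLC1A5, at 55.7 ± 5.07, 54.0 ± 1.17 and 53.5 ± 12.2 CPM per kb, lay within their spread of each other. In DMSO they were apart, with SLC1A5 at 83.9 ± 0.916, SLC3A2 at 71.2 ± 1.87 and SLC38A2 at 51.9 ± 1.06 CPM per kb. SLC6A8 was in place 13 in panobinostat and place 22 in DMSO, and SLC7A11 in place 12 in panobinostat and place 9 in DMSO.

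**Figure D4:**
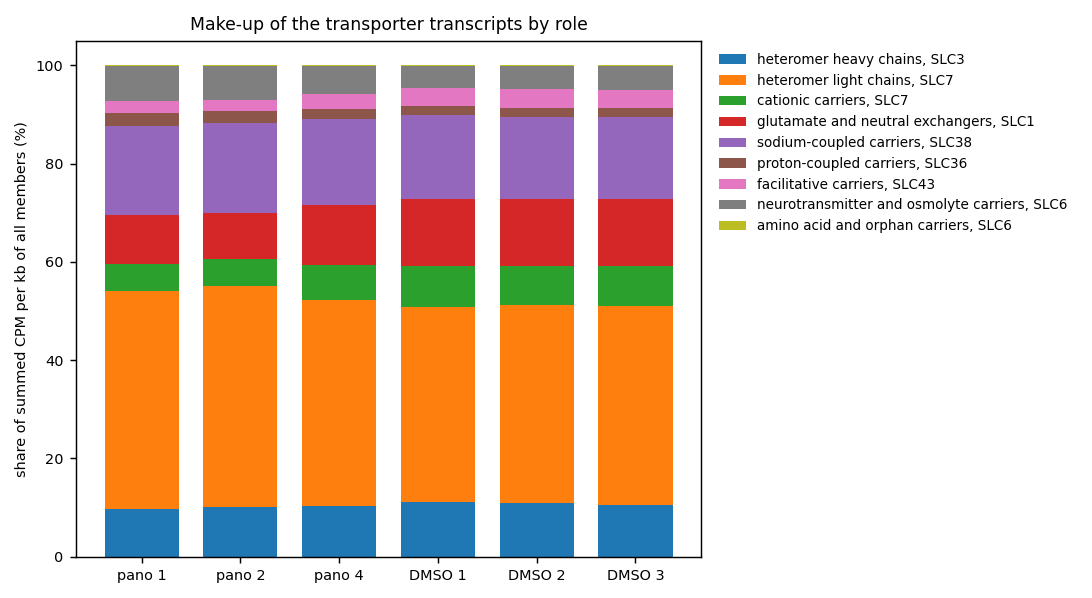
Share of the summed level per length (%, vertical axis) held by each transport role in each library, panobinostat left of DMSO. The light chains of the heteromers hold 43.8% on average in panobinostat and 40.1% in DMSO, and the amino acid and orphan SLC6 carriers, at 0.123% and 0.160%, are too thin to see.

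Genes that sense or use amino acids were counted in 5 lists beside the transporters, and values in brackets after a gene are its log2 fold change ± SE. Of the mTORC1 amino acid sensing genes 32 of 33 were tested, and 13 rose, 5 fell and 14 were not called (56.2% called, against 58.9% of all tested genes). The rises made up 40.6% and the falls 15.6%, against 30.2% and 28.6% of all tested genes, and the median log2 fold change was 0.20, or 0.22 without panobinostat replicate 4. The sestrin gene SESN3 (3.79 ± 0.27), its relative SESN2, which encodes a leucine sensor (0.91 ± 0.12), CASTOR2, a relative of the arginine sensor gene CASTOR1 (2.04 ± 0.48), and BMT2, also known as SAMTOR, a sensor of S-adenosylmethionine (0.92 ± 0.20), led the rises. ITFG2, a subunit of the complex that holds the GATOR complex at the lysosome (−1.18 ± 0.32), the lysosomal scaffold gene LAMTOR1 (−0.70 ± 0.12), the mTORC1 subunit genes RPTOR (−0.59 ± 0.15) and MLST8 (−0.55 ± 0.13) and the GATOR subunit gene NPRL3 (−0.54 ± 0.16) fell. ITFG2 and NPRL3 lost their calls under some alternatives (adjusted p up to 0.0587 and 0.0793). CASTOR2 was at 2.74 without DMSO replicate 1.

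Of the 13 tested genes of the response to uncharged tRNA, which is known to induce several transporters through the factor ATF4, 3 rose, 6 fell and 4 were not called (69.2% called, against 58.9% of all tested genes). The rises made up 23.1% and the falls 46.2%, against 30.2% and 28.6% of all tested genes, and the median was −0.18, or −0.25 without panobinostat replicate 4. The transcription factor gene ATF5 (−1.57 ± 0.36), the pseudokinase gene TRIB3 (−1.19 ± 0.21), the ATF4 partner gene CEBPG (−0.73 ± 0.12) and IMPACT, an inhibitor of the tRNA-sensing kinase GCN2 (−0.60 ± 0.13), fell. The glutathione-degrading enzyme gene CHAC1 (0.84 ± 0.21) and the transcription factor genes ATF3 (0.78 ± 0.22) and CEBPB (0.63 ± 0.12) rose. The asparagine synthetase gene ASNS (−0.43 ± 0.28), the stress factor gene DDIT3 (−0.07 ± 0.18), the phosphatase subunit gene PPP1R15A (−0.17 ± 0.08) and EIF2AK4, which encodes GCN2 (0.13 ± 0.06), were not called. ATF4 itself, chosen after its values were seen, had 227, 230.3 and 297 CPM in panobinostat and 380.1 ± 4.61 CPM in DMSO and fell (−0.60 ± 0.10, edgeR adjusted p = 0.00292). ATF5 and ATF3 lost their calls under some alternatives (adjusted p up to 0.0995 and 0.0742), and ATF5 was at −2.26 (log2) without panobinostat replicate 4.

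Of 15 tested genes of glutamine, glutathione and arginine use, 10 rose, 3 fell and 2 were not called (86.7% called, against 58.9% of all tested genes). The rises made up 66.7%, against 30.2% of all tested genes, and 3 of 15 fell, against 28.6%. The median was 0.36, or 0.40 without panobinostat replicate 4. The ornithine decarboxylase gene ODC1 (1.36 ± 0.15), the argininosuccinate synthase gene ASS1 (1.26 ± 0.24) and the arginase gene ARG2 (0.95 ± 0.13) rose. GLUD1, the glutamate dehydrogenase gene (−0.45 ± 0.09), the glutathione synthetase gene GSS (−0.37 ± 0.08) and the glutamine synthetase gene GLUL (−0.19 ± 0.07) fell, and GOT2 (−0.08 ± 0.07) and GCLM (0.04 ± 0.10) were not called. GLUL lost its call under 7 of 12 alternatives (adjusted p up to 0.124). Across the alternatives 7 to 10 genes of this list rose and 2 to 4 fell. The rises were 7 with DESeq2, with no filter, and without panobinostat replicate 1 or 2 or DMSO replicate 1 or 3.

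Of 8 tested carriers outside the 7 families, 4 rose, 1 fell and 3 were not called (62.5% called, against 58.9% of all tested genes, median 0.61, or 0.72 without panobinostat replicate 4). The aromatic amino acid carrier gene SLC16A10 (1.33 ± 0.28), SLC17A5, known for exporting sialic acid from the lysosome (1.24 ± 0.14), MFSD12, known for lysosomal cysteine import (1.05 ± 0.13), and the cystine exporter gene CTNS (0.90 ± 0.11) rose. SLC15A3, a lysosomal carrier of peptides and histidine, fell (−1.27 ± 0.35), with an adjusted p of up to 0.0654 over its alternatives. SLC66A1 (−0.19 ± 0.16), SLC15A4 (−0.12 ± 0.11) and the nucleoside carrier gene SLC29A3 (0.32 ± 0.16) were not called. Of 7 tested partners and turnover factors, 3 rose, 1 fell and 3 were not called (57.1% called, against 58.9% of all tested genes, median 0.12, or 0.17 without panobinostat replicate 4). NEDD4L, a ubiquitin ligase that removes carriers from the surface (1.64 ± 0.16), the arrestin-like gene TXNIP (1.04 ± 0.13) and the carrier chaperone gene BSG (0.23 ± 0.06) rose, the related ligase gene NEDD4 fell (−0.44 ± 0.10), and ITGB1 (0.08 ± 0.05), CD44 (0.09 ± 0.05) and ARRDC3 (0.12 ± 0.09) were not called. BSG lost its call under 3 of 12 alternatives (adjusted p up to 0.0756).

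**Figure D5:**
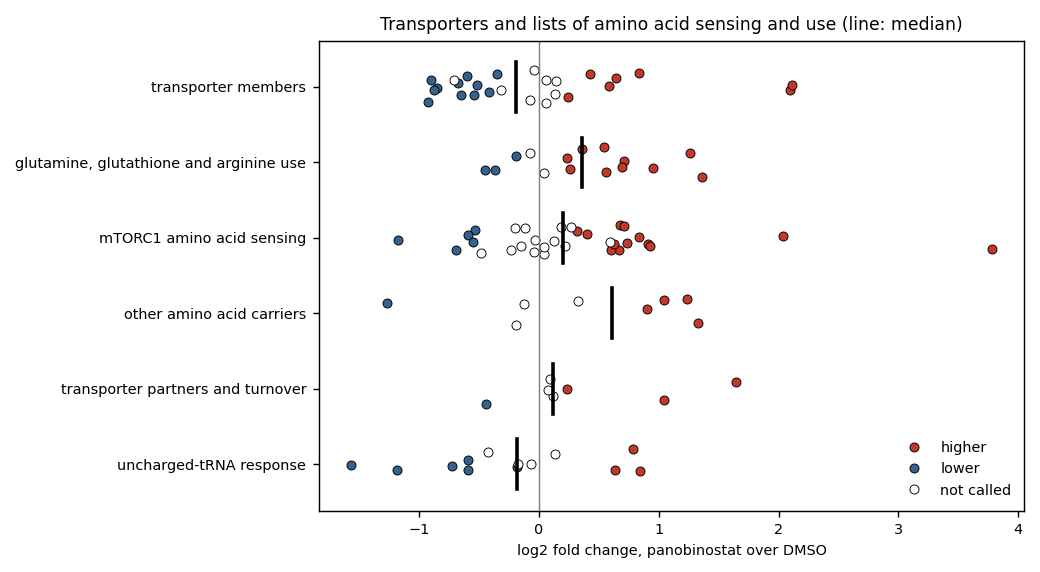
Log2 fold change of panobinostat over DMSO (horizontal axis) for each tested gene of the transporters and of the 5 lists, with red points for genes that rose, blue for genes that fell, white for uncalled genes and a line for the median. The median is −0.20 for the transporters and 0.61 for the carriers outside the 7 families, and the highest point is SESN3 at 3.79.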

How the data were processed

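RNA from 6 MDA-MB-231 libraries was sequenced after a stranded mRNA library preparation, per the labels' protocols. The authors deposited raw counts per gene, made with featureCounts as the table is named, and the build was GRCh38.p14, per the submitters' processing notes. Which aligner, annotation and strand setting were used is not stated in those sources. Counts and symbols sit under separate identifier columns of that table and were joined by identifier. The authors' own comparison in the same table was not used here.

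Counts were tested with edgeR 4.0.16 in R 4.3.3 (quasi-likelihood, robust, TMM scaling, filterByExpr, treatment as the sole term), and p-values were adjusted over all 13341 tested genes by the Benjamini-Hochberg method. A gene was called below 0.05. The SE is the estimate divided by the square root of F. CPM are counts over the TMM-scaled total, times 1000000. Exon lengths came from GENCODE release 29, and positions and promoters from RefSeq (GRCh38.p14). The fit was tested on simulated data with replicates of equal spread, a test that does not cover a library that stands apart.

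Members and lists were chosen with earlier results of these data known. Members called with at least 1.5-fold change and 1 CPM, and 8 members whatever their result (SLC3A2, SLC7A5, SLC7A11, SLC1A5, SLC7A1, SLC38A1, SLC38A2 and SLC38A9), are given per library. Of each list, up to 4 called genes in each direction are named, with those that go against the rest where 5 or fewer; 1 such gene is not reported here. Alternatives were DESeq2 1.42.0, DESeq2 size factors, library size only, no filter, limma 3.58.1 (voom with quality weights), the replicate block and leaving out each library.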

Additional observations from a re-analysis of the deposited data

How the results depend on the processing

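Of the 18 called members, 14 kept their call and direction under all 12 alternatives, and SLC7A1, SLC7A6, SLC6A9 and SLC38A10 did not. Leaving out each library in turn gave 6 to 8 members higher and 9 to 13 lower, and the 6 other alternatives gave 6 to 8 higher and 11 to 13 lower. Over all tested genes, leaving out a library gave 3106 to 5171 higher and 2624 to 5078 lower. With no filter SLC36A2, SLC43A2 and SLC1A7, too low to test otherwise, were called as well (edgeR adjusted p = 0.0200, 0.0455 and 0.0482).

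Replicates 1 and 2 occur in both treatments, and the main fit did not take the numbers as a pairing. Deviations from the group means correlated at 0.0566 and 0.00774 across genes in these pairs. The panobinostat mean includes replicate 4, which stood apart, so these correlations cannot show whether the libraries are paired. The replicate block adds replicate number to the fit. DMSO replicate 3 and panobinostat replicate 4 have no counterpart in the other treatment, so its treatment effect rests on replicates 1 and 2. With the replicate block 8 members were higher and 13 lower, and SLC7A5, SLC6A6 and SLC6A14 gained a call. The same members gained a call without panobinostat replicate 4, and the block is not a separate check on that library. The median log2 fold change of all tested genes was −0.003 with DESeq2 size factors, 0.0329 with library size only and −0.0528 with no filter. Most members below the filter had too few counts in these libraries for a difference to be detectable.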

Other observations

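Transcripts that lie beside or overlap the transporters were left out of the counts of members. SLC7A6OS had 131, 48 and 60 counts in panobinostat and 144, 82 and 80 counts in DMSO (log2 fold change −0.46 ± 0.12, edgeR adjusted p = 0.0136). SLC38A4-AS1 had 3, 3 and 8 counts in panobinostat replicates 1, 2 and 4 and 7, 5 and 4 counts in DMSO. The pseudogene SLC7A5P1, a near copy of part of SLC7A5, had 0 counts in all 6 libraries, and how reads shared between copies were counted is not stated in the sources at hand.

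CCDC24, which overlaps SLC6A9 on the other strand, rose (2.01 ± 0.30, edgeR adjusted p = 0.00169) where SLC6A9 fell. SLC38A6, SLC38A10, SLC6A6, SLC6A8 and SLC7A5 also share exon bases with other genes, which are not detailed here. Panobinostat replicate 4 lay between the other panobinostat libraries and every DMSO library in 91.7% of the 7853 called genes. The called members where it did not were SLC6A9, SLC43A1 and SLC38A9.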
